A study of Mus musculus with 24 samples.

Results

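The skeletal muscle genes of mouse skin were read here as 48 genes of the contractile apparatus, the calcium machinery and the energy supply of striated muscle, across skin of 3 kinds at 2 times. The genes were taken from a list of muscle symbols, and each was represented by its probe set with the highest mean over all arrays. All 48 were measured among 18193 genes in all, and 15 of them had more than 1 probe set. By role they were 13 genes of fast fibres, 7 of slow fibres, 12 shared sarcomere genes, 4 of calcium release, 7 of energy supply, 1 light chain kinase, 2 developmental myosins and 2 myogenic regulators. The 24 Affymetrix arrays came from dorsal skin over the scapula, shaved beforehand, of RAG2-/- female mice, all grafted with splenocytes. Mice without RAG2 have no T or B cells except those transferred. Syngeneic mice had received Balb/c splenocytes. GVH-SSc mice model sclerodermatous graft-versus-host disease and had received B10.D2 splenocytes. They were given either isotype control antibody or anti-IFNAR1, an antibody to a subunit of the receptor for type I interferon. Skin was taken at day 14 or day 28, with 4 arrays in each of the 6 groups, called syngeneic, isotype and anti-IFNAR1 skin below. The labels give no age or antibody dose, name no antibody for the syngeneic mice, and do not say that each array is a separate animal, so the p-values cover the spread between arrays and nothing more.

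Under the dermis of a mouse lies a thin sheet of striated muscle, the panniculus carnosus, which is made mostly of fast fibres and is sampled with full-thickness skin. In a muscle fibre, calcium released from the sarcoplasmic reticulum binds troponin, which lets myosin pull on actin, and calcium pumps then refill the store. Fast and slow fibres carry out the same steps with different gene products for the myosin heavy and light chains, the troponins and several Z disc proteins.

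Levels are given as log2(intensity + 16), a scale on which a probe set without signal lies just above 4, and changes as log2 differences of group means ± SE of the fit. A gene is called where limma's adjusted p over all 18193 genes lay under 0.05. Array medians of intensity ran from 14.8 to 17.7. The members marked the tissue as containing skeletal muscle, since Acta1, skeletal alpha-actin, read from 14.14 to 15.70 on the 24 arrays. Markers listed for heart muscle were mostly dim: Myh6, Nppa and Myl7 lay near the lower end of the scale on all arrays, Tnnt2, which forming skeletal muscle also makes, ran from 6.64 to 9.66, and no heart muscle marker was called in the comparisons at either day. Some arrays stood apart. Replicate 2 of anti-IFNAR1 skin at day 28 was the lowest of its group for 44 of 48 members, replicate 3 of syngeneic skin at day 28 for 41, and replicate 1 of syngeneic skin at day 14 for 33. Replicate 2 of isotype skin at day 28 was the highest of its group for 35 of 48 members. On the arrays named as lowest, in that order, the mean of 10 hair follicle markers was 13.9, 12.5 and 4.76. It was also high on replicate 4 of syngeneic skin at day 28 (11.8) and replicate 3 of syngeneic skin at day 14 (9.2). The member means there were 11.9 and 12.1, not the lowest of their groups. Counts of called members are therefore also given without arrays of a high hair follicle mean, and without arrays of a high ratio of 3' to 5' signal in the Gapdh controls, which reports on RNA quality.

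**Figure D1:**
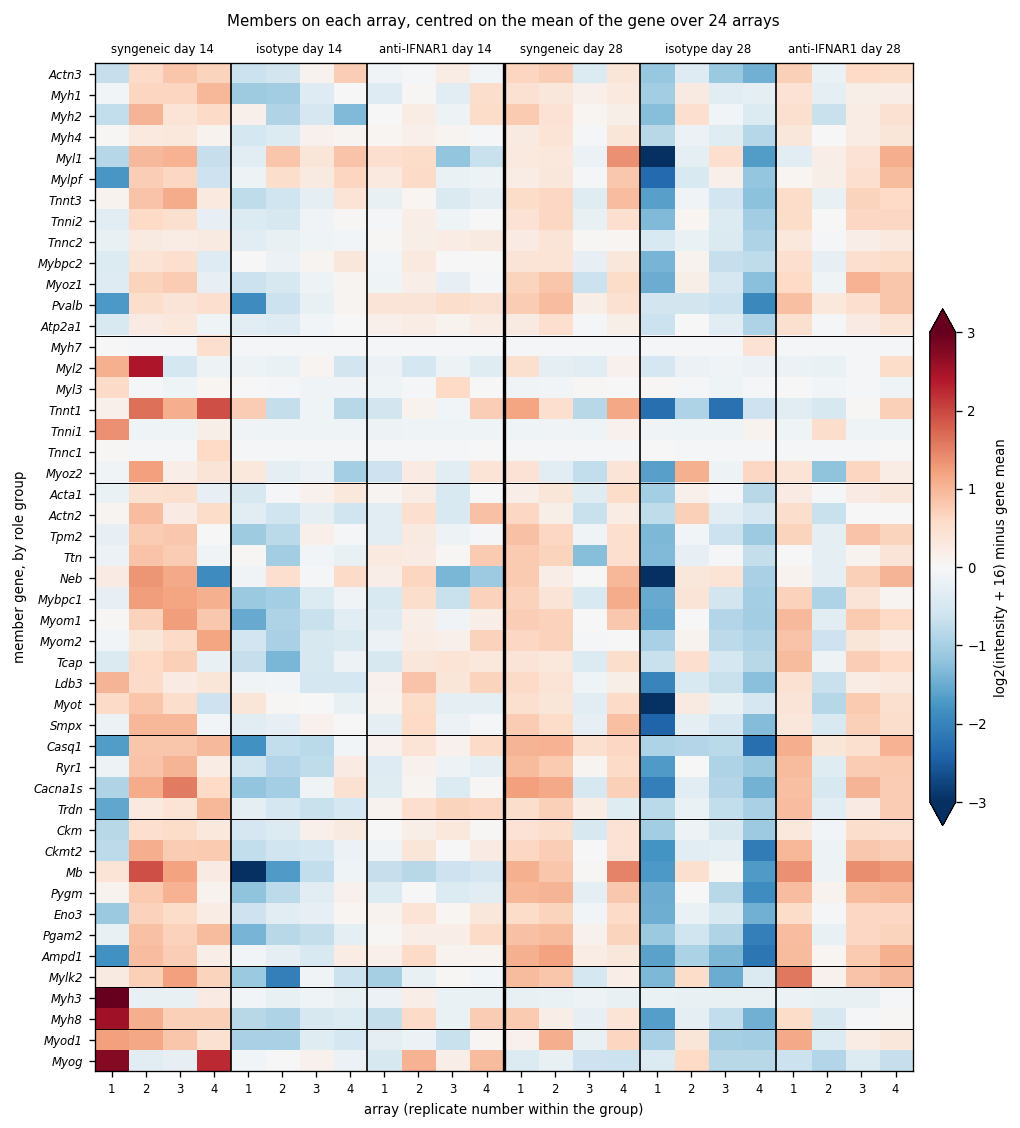
Level of each of the 48 members (rows, grouped by role) on each of the 24 arrays (columns, 4 per group), as the difference in log2(intensity + 16) from the mean of the gene over all arrays, with red above and blue below that mean. Replicates 1, 3 and 4 of isotype skin at day 28 were blue across most members, among them the slow gene Tnnt1 and Myog. The dim genes Myh7, Tnni1, Tnnc1 and Myh3 stayed close to their means there. Replicate 2 of that group lay near the gene means, with a mean difference of -0.04 over the members. Replicate 1 of syngeneic skin at day 14 was red for Myh3 (8.59), Myh8 (9.51) and Myog (9.42).

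Established disease was read from the comparison of isotype with syngeneic skin at day 28. Of the 48 members 26 were lower in isotype skin and none was higher, while 9.69% of all genes were called lower and 16.3% were called in either direction. The median change of the members was -1.10, beside -0.001 for all genes. The fall ran through the fast fibre genes (9 of 13), calcium release (3 of 4) and energy supply (6 of 7), and reached 5 of 12 shared sarcomere genes and 1 of 7 slow fibre genes. In 13 of the 48 the groups did not overlap, with the isotype arrays lower, as for 12.2% of all genes. In bulk skin, fewer muscle cells and less RNA per muscle cell cannot be told apart. The count depended on single arrays: it was 17 without replicate 1 or replicate 2 of syngeneic skin, 17 without isotype replicate 1 and 15 without isotype replicate 4. It was 9 when only these 8 arrays were fitted (12.4% of all genes called), 15 without arrays of a high Gapdh ratio (12.2%) and 24 without arrays of a high hair follicle mean (11.3%). For the fits without a single array the share of all genes called is not given. Whether those shifts are particular to the members was therefore not tested.

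The most changed member was Ampd1, AMP deaminase of muscle, which recycles adenine nucleotides during contraction. Its level at day 28 was 12.14, 12.28, 11.30 and 11.41 on the 4 syngeneic arrays, in replicate order, and 9.46, 10.11, 9.72 and 8.91 on the isotype arrays. Every isotype array lay below every syngeneic array, by 2.23 ± 0.44 on average (adjusted p = 0.0017), a 4.69-fold lower signal. Pgam2, the muscle phosphoglycerate mutase of glycolysis, had the lowest adjusted p of the members. It read 13.70, 13.79, 12.97 and 13.50 in syngeneic and 11.72, 12.23, 11.92 and 10.78 in isotype skin, again without overlap, and fell by 1.83 ± 0.33 (adjusted p = 0.00074). Pygm, which releases glucose from muscle glycogen, read 13.34, 13.38, 12.09 and 13.15 in syngeneic and 10.85, 12.36, 11.53 and 10.48 in isotype skin. Isotype replicate 2 lay above syngeneic replicate 3 here, so the groups overlapped, and Pygm fell by 1.69 ± 0.38 (adjusted p = 0.0047). Ckm, the cytosolic creatine kinase, read 15.14, 15.24, 14.23 and 15.14 in syngeneic and 13.67, 14.56, 14.23 and 13.61 in isotype skin, with overlapping groups, and fell by 0.92 ± 0.30 (adjusted p = 0.041). That call was lost in 5 of 8 fits that each left out 1 array, with replicate 1, 2 or 4 of syngeneic or replicate 1 or 4 of isotype skin removed. Ckmt2, the mitochondrial creatine kinase, and Eno3, muscle enolase, fell too. Mb, myoglobin, which stores oxygen, was the energy gene not called: it read 13.03, 12.79, 12.00 and 13.46 in syngeneic and 10.24, 12.44, 12.00 and 10.27 in isotype skin, a change of -1.58 ± 0.60 (adjusted p = 0.086).

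Among the calcium genes, Casq1, the calcium-binding protein that loads the sarcoplasmic reticulum, showed the largest fall. Casq1 read 13.92, 13.95, 13.38 and 13.51 in syngeneic and 11.97, 12.01, 12.08 and 10.63 in isotype skin. All isotype arrays lay below all syngeneic arrays, and the change was -2.02 ± 0.48 (adjusted p = 0.0067). Ryr1, the channel through which the stored calcium leaves, read 13.87, 13.70, 13.00 and 13.50 in syngeneic and 11.23, 12.95, 12.01 and 11.80 in isotype skin. It fell by 1.52 ± 0.36 (adjusted p = 0.0065) with the highest isotype array just below the lowest syngeneic array. With the mean of all its probe sets, Ryr1 changed by -1.15 and was not called (adjusted p = 0.15). Cacna1s, the voltage sensor that opens Ryr1, fell by 1.82 ± 0.53 (adjusted p = 0.023). Trdn, triadin, which ties Casq1 to Ryr1, had a change of -0.96 ± 0.40 and was not called (adjusted p = 0.12). Pvalb, the soluble calcium buffer of fast fibres, read 14.72, 14.87, 14.16 and 14.43 in syngeneic and 13.41, 13.42, 13.30 and 12.03 in isotype skin. It fell by 1.51 ± 0.46 (adjusted p = 0.029), without overlap, and lost the call without replicate 1, 2 or 4 of syngeneic skin or replicate 4 of isotype skin. Atp2a1, the calcium pump of fast fibres, read 15.12, 15.36, 14.81 and 15.03 in syngeneic and 14.21, 14.87, 14.52 and 13.93 in isotype skin and fell by 0.70 ± 0.19 (adjusted p = 0.014). Without syngeneic replicate 2 its adjusted p was 0.052, and without isotype replicate 4 it was 0.064.

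Of the fast contractile genes, Myh4 and Tnnc2 fell by less than 1 on the log2 scale but with little spread. Myh4, the heavy chain of the fastest mouse fibres, read 15.66, 15.80, 15.33 and 15.74 in syngeneic and 14.57, 15.22, 15.02 and 14.54 in isotype skin. The groups did not overlap and Myh4 fell by 0.79 ± 0.16 (adjusted p = 0.0022). With the mean of all its probe sets the change was -0.96 and the call was lost (adjusted p = 0.30). Myh1 and Myh2, the heavy chains of the other fast fibre types, had changes of -0.65 ± 0.29 and -0.68 ± 0.40 and were not called. The 5 skeletal heavy chain genes Myh3, Myh2, Myh1, Myh4 and Myh8 follow each other in this order on chromosome 11, and the Myh1 probe set has the suffix that Affymetrix gives to sets that may cross-hybridise, so signal of one heavy chain may enter another. Tnnc2, the fast calcium-binding troponin, read 15.62, 15.77, 15.42 and 15.43 in syngeneic and 14.93, 15.17, 14.94 and 14.44 in isotype skin. It fell by 0.69 ± 0.14 (adjusted p = 0.0017), and no isotype array reached a syngeneic one. Tnnt3 and Tnni2, its partners that bind tropomyosin and inhibit actin, fell by 1.32 ± 0.34 (adjusted p = 0.012) and by 1.02 ± 0.27 (adjusted p = 0.014). Tnnt3 read 14.59, 14.65, 13.66 and 14.95 in syngeneic and 12.40, 13.93, 13.46 and 12.80 in isotype skin. Tnni2 read 15.14, 15.32, 14.47 and 15.20 in syngeneic and 13.38, 14.76, 14.28 and 13.65 in isotype skin. In both genes isotype replicate 2 lay above syngeneic replicate 3, and the Tnni2 call was lost without isotype replicate 1 (adjusted p = 0.061) or 4 (adjusted p = 0.057). Actn3, the Z disc actinin of fast fibres, fell by 1.35 ± 0.35 (adjusted p = 0.012), Mybpc2, fast myosin-binding protein C, by 0.91 ± 0.28 (adjusted p = 0.029) and Myoz1, a Z disc protein of fast fibres, by 1.12 ± 0.38 (adjusted p = 0.0496). Mybpc2 and Myoz1 each lost the call in 6 of 8 fits without 1 array, those without replicate 1, 2 or 4 of syngeneic and replicate 1, 3 or 4 of isotype skin. The fast light chains Myl1 and Mylpf had larger but more scattered changes of -1.61 ± 0.66 and -1.27 ± 0.49 that were not called.

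Of the 12 sarcomere genes shared by fibre types, 5 were called and actin and titin were not. Smpx, a small muscle protein, fell by 1.61 ± 0.41, Myom1, myomesin of the M band, by 1.43 ± 0.34, Ldb3, a Z disc scaffold, by 1.35 ± 0.30, Tpm2, beta-tropomyosin, by 1.27 ± 0.34, and Myom2 by 0.96 ± 0.32. Acta1 read 15.37, 15.53, 14.80 and 15.70 in syngeneic and 14.14, 15.31, 15.10 and 14.31 in isotype skin, a change of -0.64 ± 0.26 (adjusted p = 0.12) with overlapping groups. Ttn, titin, the giant spring of the sarcomere, read 15.22, 15.11, 13.16 and 14.95 in syngeneic and 13.11, 14.19, 14.40 and 13.74 in isotype skin. Syngeneic replicate 3 lay as low as the lowest isotype arrays, and the change of -0.75 ± 0.40 was not called (adjusted p = 0.25). Neb, nebulin, which sets thin filament length, had the widest range in isotype skin: it read 12.57, 12.00, 11.81 and 12.80 in syngeneic and 8.32, 12.14, 12.21 and 10.82 in isotype skin (change -1.42 ± 0.76). Actn2, Mybpc1, Tcap and Myot were also not called, with changes between -1.12 and -0.32.

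**Figure D2:**
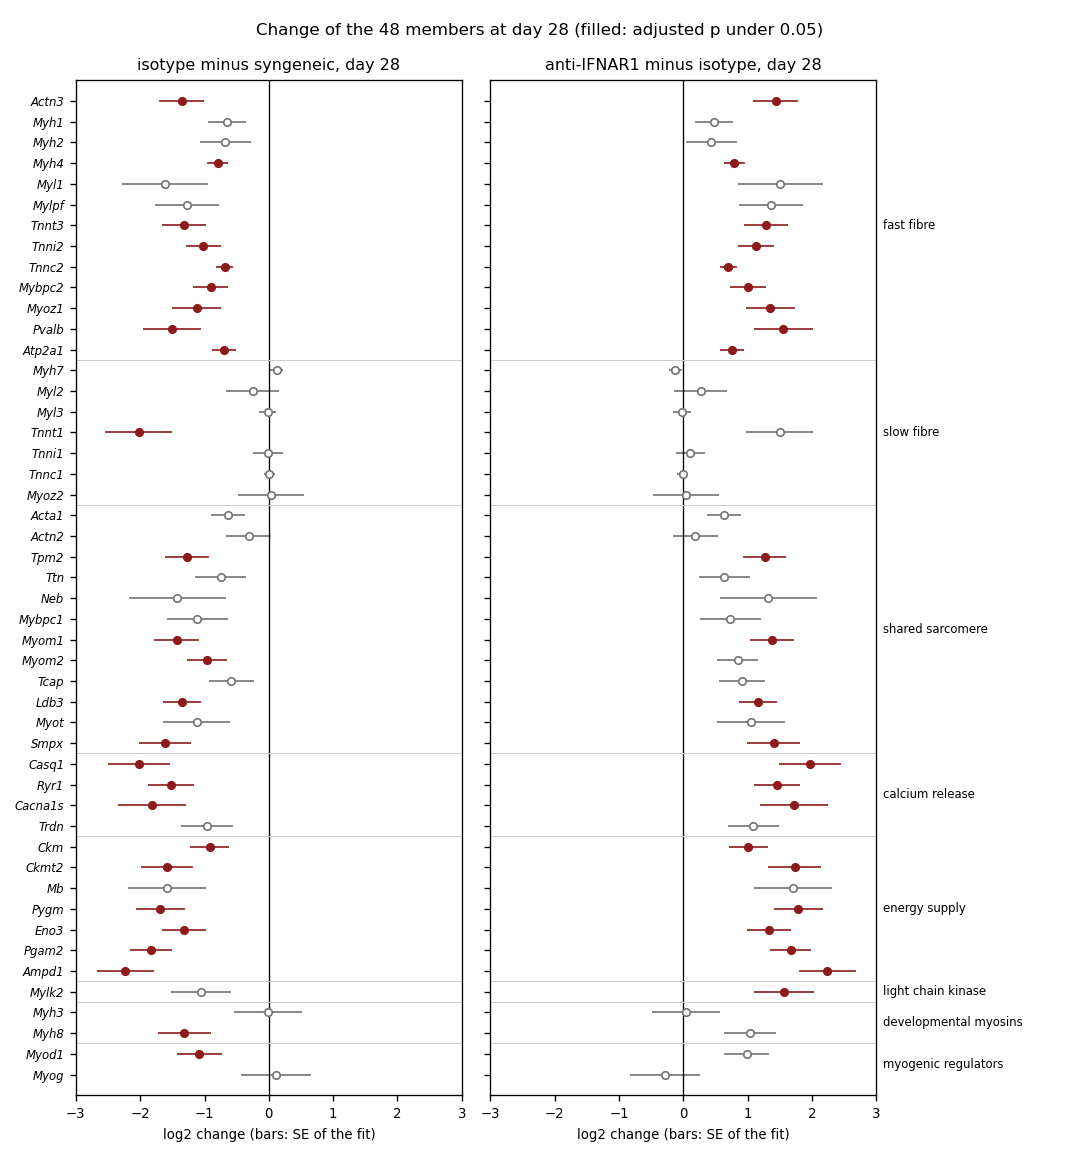
Change of each of the 48 members at day 28 (log2 scale, bars are SE of the fit), for isotype minus syngeneic skin at left and anti-IFNAR1 minus isotype skin at right, with filled points for genes called at adjusted p under 0.05. At left 26 members are called and all lie below 0, at right 23 are called and all lie above 0, and both panels use the same 4 isotype arrays.

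The slow fibre genes were set beside the fast ones, but most of them were too dim for a fall to be seen. Myh7, the slow heavy chain, read between 4.39 and 4.94 on all 24 arrays, near the lower end of the scale. Tnnc1, the slow troponin C, ran from 4.41 to 5.05, and Tnni1, slow troponin I, from 4.33 to 5.84. Myl3, a slow light chain, ran from 5.88 to 6.62 and Myl2, the slow regulatory light chain, from 4.46 to 7.43. None of these 5 was called in the comparisons at either day. Tnnt1 and Myoz2 were the 2 slow members among the 9097 genes with the higher mean levels. Tnnt1, slow troponin T, read 9.14, 8.44, 7.12 and 9.11 in syngeneic and 5.68, 7.02, 5.70 and 7.32 in isotype skin at day 28. It fell by 2.02 ± 0.52 (adjusted p = 0.011), the largest after Ampd1, and the groups overlapped only at syngeneic replicate 3 and isotype replicate 4. Myoz2, a Z disc protein of slow fibres, read 9.53, 8.74, 8.36 and 9.48 in syngeneic and 7.45, 10.15, 8.94 and 9.71 in isotype skin. Isotype replicate 2 was the highest and replicate 1 the lowest of these 8 arrays, and the change was 0.04 ± 0.52. Mybpc1, the slow form of myosin-binding protein C, which fast fibres also make, was listed with the shared genes. It read 12.75, 12.45, 11.60 and 13.17 in syngeneic and 10.55, 12.43, 11.51 and 11.03 in isotype skin (change -1.11 ± 0.47, adjusted p = 0.13).

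Averaged over each list, the change of the fast genes minus that of the slow genes was -0.74 in isotype against syngeneic skin at day 28. The spread of fast minus slow between arrays of a group was 0.418 (SD). When only the 9097 genes with the higher mean levels were kept, which left 13 fast and 2 slow genes, the difference was -0.05. Per array, with each gene first centred on its mean, fast minus slow was 0.29 ± 0.20 (SD, n = 4) in syngeneic, -0.45 ± 0.55 in isotype and 0.36 ± 0.15 in anti-IFNAR1 skin at day 28. At day 14 these values were -0.26 ± 0.64, -0.06 ± 0.48 and 0.11 ± 0.20. No test was made of these averages, and the difference at day 28 depended on whether the dim slow genes were counted.

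**Figure D3:**
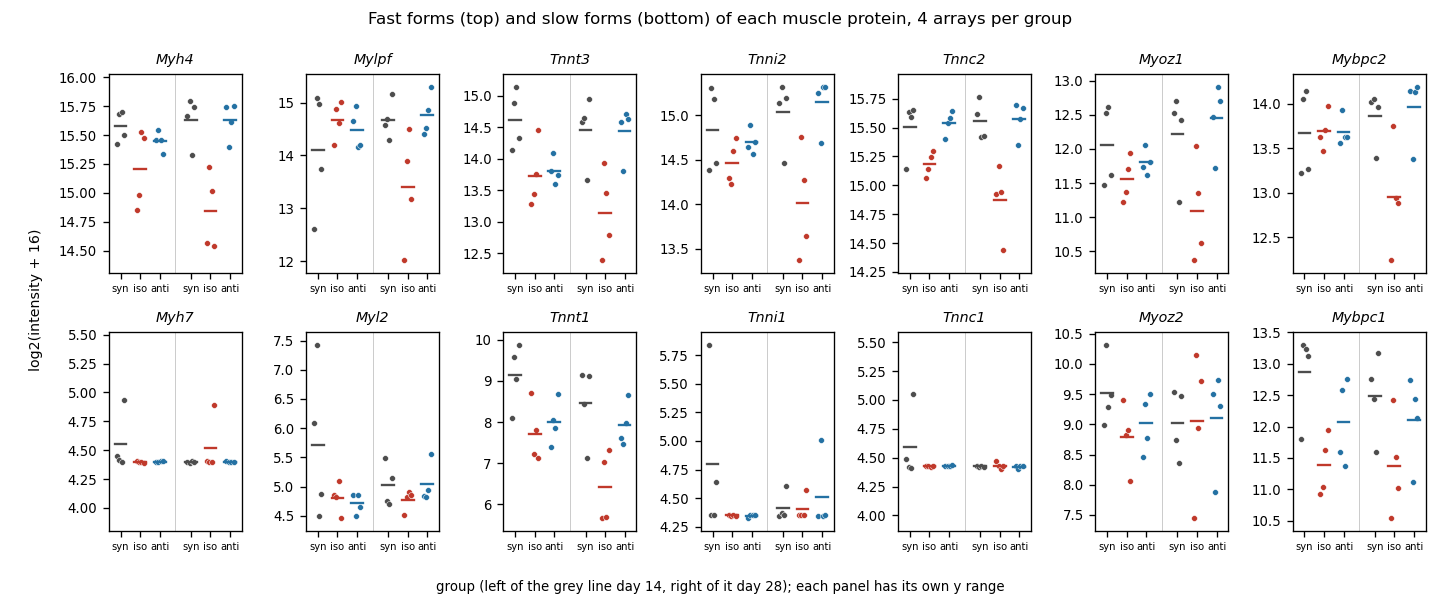
Level on each array of 7 proteins with a fast form (top row) and a slow form (bottom row), as log2(intensity + 16), with 1 point per array, a line at the mean of 4 arrays, and syngeneic (syn), isotype (iso) and anti-IFNAR1 (anti) skin at day 14 and day 28. Myh7, Tnni1 and Tnnc1 stay close to 4.4 on most arrays, while Myh4 and Tnnc2 drop in isotype skin at day 28 without overlap.

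Upstream sequence is shown for 5 members whose changes carry the account above: Pgam2 and Casq1 for the metabolic and calcium genes, Myh4 for the fast fibre, Tnnt1 as the slow gene that fell and Myoz2 as a slow gene that was not called. The 150 bases before the start in a RefSeq promoter record of each gene are given 5′ to 3′ on the strand of the gene, in build GRCm38.p6. Capitals mark CAGCTG, and CACCTG or its reverse complement CAGGTG, which are 2 forms of the E box that MyoD and myogenin are known to bind.
Pgam2 (chr11:5803797-5803946, minus strand): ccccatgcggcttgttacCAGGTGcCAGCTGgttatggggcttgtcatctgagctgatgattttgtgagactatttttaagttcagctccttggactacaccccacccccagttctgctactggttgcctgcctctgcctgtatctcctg
Casq1 (chr1:172219896-172220045, minus strand): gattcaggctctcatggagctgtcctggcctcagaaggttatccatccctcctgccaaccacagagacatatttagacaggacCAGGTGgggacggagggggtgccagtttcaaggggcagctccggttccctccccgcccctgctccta
Myh4 (chr11:67237662-67237811, plus strand): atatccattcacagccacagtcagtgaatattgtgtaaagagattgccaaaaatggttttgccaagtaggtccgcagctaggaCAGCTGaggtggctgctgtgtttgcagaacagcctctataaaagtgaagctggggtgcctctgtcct
Tnnt1 (chr7:4515976-4516125, minus strand): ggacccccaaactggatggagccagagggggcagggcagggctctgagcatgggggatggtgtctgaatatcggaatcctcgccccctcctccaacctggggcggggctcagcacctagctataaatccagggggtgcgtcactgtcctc
Myoz2 (chr3:123034988-123035137, minus strand): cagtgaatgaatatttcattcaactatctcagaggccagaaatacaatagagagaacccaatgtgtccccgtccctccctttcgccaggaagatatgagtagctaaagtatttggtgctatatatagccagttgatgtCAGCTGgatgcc
Tnnt1 has no marked letters in this window but has CACCTG within the 250 bases before its start, and Myoz2 has 1 marked site here. The annotated Myoz2 gene reaches to position 123035003, so the end of its window, with the marked site, lies inside the gene. Promoter records were found for 36 of the 48 members. Within 250 bases before the start, CAGCTG, which reads the same on both strands, was present in 17 of these 36 genes (47.2%), beside 14.7% of 27025 genes with a record. CACCTG on either strand was present in 10 (27.8%), beside 19.4% of all. CATTCC, the core of the site bound by TEAD factors, was present in 10 (27.8%), beside 14.4%, and CTA and TAG with any 4 bases between them, a form of the site bound by MEF2, in 4 (11.1%), beside 3.7%. TATAAA was present in 8 (22.2%), beside 14.3%. Sites can overlap one another, and a match of letters is no measure of binding.

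The effect of blocking the type I interferon receptor was read from anti-IFNAR1 against isotype skin at day 28. Of the 48 members 23 were higher with the antibody and none was lower, while 8.42% of all genes were called higher and 13.3% in either direction. The median change was 1.07, beside -0.001 for all genes. The rise covered 9 of 13 fast genes, 3 of 4 calcium release genes, 6 of 7 energy genes, 4 of 12 shared sarcomere genes and Mylk2, the kinase of the fast regulatory light chain. No slow gene, developmental myosin or myogenic regulator was called. In 12 members the groups did not overlap, with anti-IFNAR1 arrays higher, as for 10.3% of all genes. This comparison and that of isotype with syngeneic skin share the 4 isotype arrays, so a low isotype value enters both with opposite sign. The count was 15 without isotype replicate 1 or anti-IFNAR1 replicate 1 and 14 without isotype replicate 4 or anti-IFNAR1 replicate 3 or 4. It was 7 when only these 8 arrays were fitted (8.46% of all genes called), 8 without arrays of a high Gapdh ratio (2002 of 18193 genes) and 28 without arrays of a high hair follicle mean (15.6%). For the fits without a single array the share of all genes called is again not given.

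Ampd1 again changed most. On the anti-IFNAR1 arrays it read 12.02, 11.14, 11.87 and 12.13, all above the isotype arrays given above, and it rose by 2.24 ± 0.44 (adjusted p = 0.0023). Casq1 read 13.99, 13.27, 13.37 and 13.94 with the antibody and rose by 1.97 ± 0.48 (adjusted p = 0.0099). Pygm read 13.28, 12.45, 13.30 and 13.34 and rose by 1.79 ± 0.38 (adjusted p = 0.0042). In these 3 genes even the lowest anti-IFNAR1 array, replicate 2, lay above the highest isotype array. Pgam2 read 13.76, 12.61, 13.45 and 13.50 and rose by 1.67 ± 0.33 (adjusted p = 0.0022). Ryr1 read 13.87, 12.55, 13.69 and 13.71 and rose by 1.46 ± 0.36 (adjusted p = 0.011), although its replicate 2 lay below isotype replicate 2. The Ryr1 call was lost with the mean of all probe sets (adjusted p = 0.17), with only these 8 arrays (0.10) and without arrays of a high Gapdh ratio (0.068). Pvalb read 14.86, 14.28, 14.46 and 14.78 and rose by 1.55 ± 0.46 (adjusted p = 0.028), with no overlap. Without isotype replicate 4, the lowest array for Pvalb, its change was 1.22 and its adjusted p 0.12. The call was also lost without anti-IFNAR1 replicate 1, 3 or 4. Mb was not called: it read 13.34, 11.80, 13.36 and 13.25, a change of 1.70 ± 0.60 (adjusted p = 0.071).

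Among the contractile genes, Myh4 read 15.74, 15.40, 15.62 and 15.75 in anti-IFNAR1 skin and rose by 0.79 ± 0.16 (adjusted p = 0.0032), with every array above the isotype ones. With the mean of all its probe sets that call was lost too (adjusted p = 0.42). Tnnc2 read 15.69, 15.35, 15.58 and 15.67 and rose by 0.70 ± 0.14 (adjusted p = 0.0021), likewise without overlap. Tnni2 read 15.25, 14.69, 15.32 and 15.32 and rose by 1.13 ± 0.27 (adjusted p = 0.0093). Tnnt3 read 14.59, 13.81, 14.71 and 14.63 and rose by 1.29 ± 0.34 (adjusted p = 0.017). Replicate 2 stood well below the other anti-IFNAR1 arrays in both. The Tnnt3 call was lost without isotype replicate 1 or 4 or anti-IFNAR1 replicate 3 or 4, with a highest adjusted p of 0.067. Atp2a1 read 15.35, 14.81, 15.11 and 15.28 and rose by 0.75 ± 0.19 (adjusted p = 0.011). Ckm read 15.04, 14.63, 15.24 and 15.22 and rose by 1.01 ± 0.30 (adjusted p = 0.029). Ckm, Mybpc2 and Myoz1 each lost the call without isotype replicate 1 or 4 or anti-IFNAR1 replicate 1, 3 or 4. Mylk2 read 10.18, 10.05, 8.70 and 9.43 in syngeneic, 7.87, 9.77, 7.73 and 8.79 in isotype and 10.81, 9.35, 10.07 and 10.20 in anti-IFNAR1 skin. Its rise of 1.57 ± 0.47 with the antibody was called (adjusted p = 0.032) and was lost in 6 of 8 fits without 1 array, all but those without isotype replicate 2 or anti-IFNAR1 replicate 2.

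Tnnt1 read 7.62, 7.46, 7.98 and 8.66 with the antibody, each above every isotype array, yet its change of 1.50 ± 0.52 missed the threshold (adjusted p = 0.064). Myoz2 read 9.51, 7.87, 9.73 and 9.31 (change 0.04 ± 0.52). Mybpc1 read 12.75, 11.12, 12.44 and 12.13 (change 0.73 ± 0.47), Acta1 15.40, 15.11, 15.40 and 15.50 (0.64 ± 0.26) and Ttn 14.45, 14.18, 14.53 and 14.83 (0.64 ± 0.40). None of these was called. Against syngeneic skin at day 28, anti-IFNAR1 skin had no called member, and none had an unadjusted p under 0.05, while 0.033% of all genes were called. The median change was -0.003, with members between -0.53 (Tnnt1) and 0.52 (Mylk2). For Ampd1 the difference was 0.01 ± 0.44 and for Myh4 -0.01 ± 0.16. This comparison shares arrays with both others, and the absence of calls does not show that the levels were equal.

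**Figure D4:**
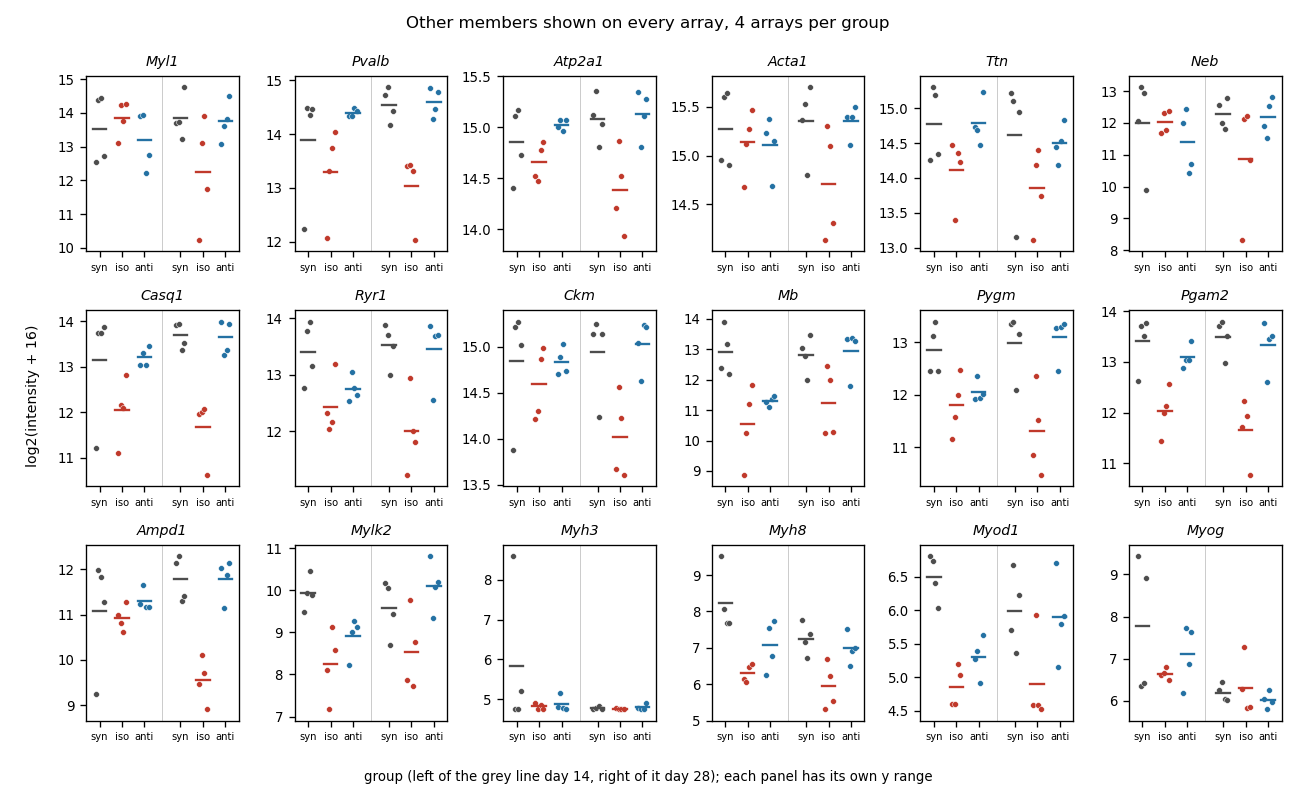
Level on each array of 18 further members, as log2(intensity + 16), with 1 point per array and a line at the mean of 4 arrays, for syngeneic (syn), isotype (iso) and anti-IFNAR1 (anti) skin at day 14 and day 28. Ampd1, Casq1 and Pgam2 lie low in isotype skin at day 28, Mb lies low in isotype and anti-IFNAR1 skin at day 14, and Myh3 rises above 8 on 1 syngeneic array at day 14.

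The earlier stage was read from isotype against syngeneic skin at day 14. Here 9 members were lower in isotype skin and none was higher, where 8.3% of all genes were called lower and 13.6% in either direction. The median change of the members was -0.75, beside -0.011 for all genes. The 9 were Mb, Myh8, Mylk2, Myod1, Myom1, Mybpc1, Pgam2, Myh1 and Myom2, so only 1 of them is a fast fibre gene. Of the 9 genes, 5 were also called lower at day 28 and the other 4 (Mb, Mybpc1, Myh1, Mylk2) were not. The groups did not overlap in 9 members, as for 8.14% of all genes. The count was 18 without syngeneic replicate 1, 5 without syngeneic replicate 4, 4 without isotype replicate 1 and 5 without isotype replicate 2. It was 1 with only these 8 arrays (0.456% of all genes called), 5 without arrays of a high Gapdh ratio (7.23%) and 7 without those of a high hair follicle mean (10.2%). Here too no share of all genes is given for the fits without a single array.

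Mb showed the largest change. It read 12.38, 13.90, 13.16 and 12.20 in syngeneic, 8.88, 10.25, 11.21 and 11.84 in isotype and 11.26, 11.12, 11.35 and 11.45 in anti-IFNAR1 skin at day 14. Every array of both GVH-SSc groups lay below every syngeneic array, and isotype skin was lower by 2.36 ± 0.60 (adjusted p = 0.015). Without isotype replicate 1, the lowest array, the change was -1.81 and the adjusted p 0.063. Pgam2 read 12.62, 13.71, 13.52 and 13.77 in syngeneic, 11.45, 12.00, 12.13 and 12.56 in isotype and 12.87, 13.03, 13.04 and 13.40 in anti-IFNAR1 skin. It fell by 1.37 ± 0.33 in isotype skin (adjusted p = 0.01), and the anti-IFNAR1 arrays lay above all isotype arrays. Mylk2 read 9.50, 9.95, 10.46 and 9.89 in syngeneic, 8.11, 7.17, 9.13 and 8.58 in isotype and 8.24, 9.01, 9.26 and 9.13 in anti-IFNAR1 skin. It fell by 1.70 ± 0.47 (adjusted p = 0.022), a call lost without syngeneic replicate 3 or 4 or isotype replicate 1 or 2. Mybpc1 read 11.80, 13.30, 13.23 and 13.12 in syngeneic, 10.93, 11.04, 11.63 and 11.95 in isotype and 11.60, 12.58, 11.37 and 12.75 in anti-IFNAR1 skin. Its fall of 1.47 ± 0.47 (adjusted p = 0.046) was lost in 6 of 8 fits without 1 array, all but those without syngeneic replicate 1 or isotype replicate 4. With the mean of all its probe sets the Mybpc1 change was -0.61 (adjusted p = 0.60).

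Most genes that stood out at day 28 were not called at day 14. Ampd1 read 9.25, 11.99, 11.82 and 11.27 in syngeneic, 10.98, 10.80, 10.61 and 11.28 in isotype and 11.23, 11.65, 11.17 and 11.17 in anti-IFNAR1 skin. Syngeneic replicate 1 was the lowest of all 12 arrays, and the change in isotype skin was -0.16 ± 0.44. Casq1 read 11.22, 13.73, 13.74 and 13.86 in syngeneic, 11.09, 12.16, 12.09 and 12.82 in isotype and 13.04, 13.30, 13.03 and 13.46 in anti-IFNAR1 skin, with the same syngeneic array as low as the isotype ones (change -1.10 ± 0.48, adjusted p = 0.15). Pvalb read 12.24, 14.48, 14.35 and 14.47 in syngeneic, 12.06, 13.30, 13.74 and 14.05 in isotype and 14.34, 14.34, 14.49 and 14.43 in anti-IFNAR1 skin, and again syngeneic replicate 1 lay below the other 3 (change -0.60 ± 0.46). Myh4 read 15.42, 15.68, 15.70 and 15.50 in syngeneic, 14.85, 14.98, 15.53 and 15.48 in isotype and 15.46, 15.54, 15.46 and 15.34 in anti-IFNAR1 skin (change -0.37 ± 0.16, adjusted p = 0.15). Tnnc2 read 15.14, 15.64, 15.59 and 15.65 in syngeneic, 15.06, 15.15, 15.25 and 15.30 in isotype and 15.40, 15.54, 15.59 and 15.65 in anti-IFNAR1 skin (change -0.32 ± 0.14, adjusted p = 0.13). In both genes at least 3 syngeneic arrays lay above the isotype mean. Tnnt1 read 8.10, 9.59, 9.04 and 9.88 in syngeneic, 8.71, 7.23, 7.81 and 7.12 in isotype and 7.40, 8.05, 7.85 and 8.67 in anti-IFNAR1 skin (change -1.43 ± 0.52, adjusted p = 0.073). Acta1 read 14.96, 15.60, 15.64 and 14.90 in syngeneic, 14.68, 15.12, 15.28 and 15.47 in isotype and 15.23, 15.38, 14.69 and 15.15 in anti-IFNAR1 skin (change -0.14 ± 0.26). Mylpf was the member with the highest positive change, 0.57 ± 0.49, and its syngeneic arrays read 12.61, 15.08, 14.97 and 13.74.

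With the antibody at day 14 no member was called against isotype skin, where 0.813% of all genes were called in either direction. The unadjusted p was under 0.05 for 9 members, and a limma fit with array weights called 11, along with 14.3% of all genes. Of the 48 changes 40 were positive with a median of 0.34, and the largest were those of Casq1 (1.16 ± 0.48), Pvalb (1.11 ± 0.46) and Pgam2 (1.05 ± 0.33). In 10 members the anti-IFNAR1 arrays lay above all isotype arrays, as for 4.56% of all genes. Against syngeneic skin no member was called either, where 1.12% of all genes were called, and 8 members had an unadjusted p under 0.05. The lowest change against syngeneic skin was -1.61 ± 0.60 for Mb. The shares of all genes rest on the adjusted p, so they are no background for the member counts at an unadjusted p.

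Between day 14 and day 28 no member was called in any of the 3 kinds of skin. The shares of all genes called were 0.077% in syngeneic, 2.2% in isotype and 0.555% in anti-IFNAR1 skin. At an unadjusted p under 0.05, a looser threshold than that of these shares, there were 2, 10 and 3 members. No share of all genes is given at that threshold, so the member counts there have no background. The largest changes over time were -1.58 for Myog in syngeneic skin, -1.59 for Myl1 in isotype skin and 1.64 for Mb in anti-IFNAR1 skin. The test of whether the isotype effect differed between days called no member, and neither did that for the antibody effect. The shares of all genes called were 0.044% and 0.0715%. At the looser threshold of an unadjusted p under 0.05, again without a share of all genes, there were 3 and 11 members. The 9 calls at day 14 and 26 at day 28 are thus not shown to differ. The largest of these differences were -2.07 for Ampd1, -1.94 for Myl1 and -1.84 for Mylpf in the isotype effect, and 2.15 for Myl1, 1.97 for Neb and 1.86 for Ampd1 in the antibody effect.

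The developmental myosins and the myogenic regulators, which are raised when fibres form anew, were never called higher in isotype than in syngeneic skin. Myh8, the perinatal heavy chain, read 9.51, 8.06, 7.69 and 7.70 in syngeneic, 6.14, 6.05, 6.49 and 6.57 in isotype and 6.25, 7.55, 6.78 and 7.74 in anti-IFNAR1 skin at day 14. It fell by 1.93 ± 0.41 in isotype skin (adjusted p = 0.0054) without overlap. At day 28 Myh8 read 7.76, 7.16, 6.72 and 7.39 in syngeneic, 5.31, 6.70, 6.24 and 5.53 in isotype and 7.52, 6.50, 6.93 and 7.00 in anti-IFNAR1 skin. The fall of 1.31 ± 0.41 (adjusted p = 0.032) was again without overlap, but was lost without replicate 1, 2 or 4 of syngeneic or replicate 1 or 4 of isotype skin. Myod1, the transcription factor of the muscle lineage, read 6.80, 6.73, 6.41 and 6.03 in syngeneic, 4.61, 4.60, 5.20 and 5.04 in isotype and 5.27, 5.39, 4.91 and 5.64 in anti-IFNAR1 skin at day 14. It fell by 1.63 ± 0.35 (adjusted p = 0.0059), and no isotype array reached a syngeneic one. At day 28 Myod1 read 5.71, 6.67, 5.36 and 6.23 in syngeneic, 4.59, 5.93, 4.58 and 4.52 in isotype and 6.71, 5.16, 5.79 and 5.92 in anti-IFNAR1 skin. Its fall of 1.08 ± 0.35 (adjusted p = 0.039) was lost without any 1 array other than syngeneic replicate 3 or isotype replicate 2. With array weights the Myod1 change was -0.64 (adjusted p = 0.11). Myog, myogenin, which drives fibre formation, read 9.42, 6.34, 6.43 and 8.92 in syngeneic, 6.61, 6.67, 6.80 and 6.51 in isotype and 6.20, 7.73, 6.87 and 7.63 in anti-IFNAR1 skin at day 14. Syngeneic replicates 1 and 4 stood above the other 10 arrays, and Myog was not called in any comparison. At day 28 Myog lay between 5.80 and 7.29 on all 12 arrays. Myh3, the embryonic heavy chain, read 8.59, 4.76, 4.75 and 5.21 on the syngeneic arrays at day 14 and at most 5.17 on the 20 arrays of the other groups. Syngeneic replicate 1 alone stood out for Myh3, and it was also the array that was highest for Myh8 and Myog and low for Ampd1, Casq1 and Pvalb.

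Muscle genes outside the 48 were read from lists of the same pathways. Of all genes 9.69% were called lower in isotype skin at day 28, 8.3% lower at day 14, and 8.42% higher with the antibody at day 28. In either direction the shares were 16.3%, 13.6% and 13.3%. Of 17 other sarcomere genes 8 were lower in isotype skin at day 28 and 8 were higher with the antibody. The 4 largest falls among those called were those of Myoz3 (-2.29 ± 0.47), Lmod3 (-1.71 ± 0.31), Tmod4 (-1.64 ± 0.41) and Trim54 (-1.51 ± 0.37). Myoz3 is a protein of the Z disc, and Lmod3 and Tmod4 are proteins of the thin filament end. Of 9 other energy genes 7 were lower and 7 were higher in the same 2 comparisons, such as Cox7a1 and Cox8b, muscle forms of respiratory chain subunits (-1.95 ± 0.46 and -1.81 ± 0.42). Of 12 other calcium genes 7 were lower and 1 was higher in isotype skin at day 28, and 5 were higher and 1 was lower with the antibody. Hrc and Srl, proteins of the sarcoplasmic reticulum, fell by 1.76 ± 0.35 and 1.44 ± 0.31, and Jph2 and Jph1, which hold it to the cell membrane, by 1.75 ± 0.44 and 1.46 ± 0.31. The gene called higher was Atp2a2, singled out after its values were seen, the calcium pump of slow and heart muscle that also serves cells outside muscle. Atp2a2 rose by 0.85 ± 0.21 in isotype skin and fell by 0.90 ± 0.21 with the antibody, opposite to its fast counterpart Atp2a1. At day 14, 8 of the 17 sarcomere genes, 5 of the 12 calcium genes and 4 of the 9 energy genes were lower in isotype skin, and Atp2a2 was higher by 0.79 ± 0.21. Of 14 genes of regeneration and denervation only Runx1, a transcription factor, was called at day 28, higher in isotype skin by 0.77 ± 0.24. Of 6 atrophy genes only Foxo1, a transcription factor of muscle wasting that other cells also express, was called there, lower by 0.89 ± 0.18 and higher with the antibody by 0.84 ± 0.18. At day 14, 2 of the 6 atrophy genes were lower and 1 was higher in isotype skin.

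Markers of other tissues of the skin changed in the same groups. Beside the counts below, 16.3% of all genes were called in either direction in isotype skin at day 28 and 13.6% at day 14. With the antibody at day 28 the share was 13.3%. The shares called lower in isotype skin were 9.69% at day 28 and 8.3% at day 14. All 7 measured white adipocyte markers, of the fat layer next to the muscle sheet, were lower in isotype skin at day 28 and all 7 were higher with the antibody. Their mean level ran from 11.0 to 11.9 on the syngeneic, 9.04 to 10.1 on the isotype and 11.1 to 12.1 on the anti-IFNAR1 arrays at day 28. At day 14, where 9 members were called, 1 of the 7, Lep, was lower. Smooth muscle markers were lower for 3 of 7 at day 28 (Smtn, Actg2 and Lmod1) and for 1 of 7 at day 14. All 4 T cell markers were higher in isotype skin at both days, with mean levels of 8.14 to 8.62 in isotype and 4.89 to 5.71 in syngeneic skin at day 14. All 4 were lower with the antibody at day 28. Of 5 macrophage markers 4 were higher in isotype skin at each day and 2 were lower with the antibody at day 28. Of 6 fibroblast markers 2 were lower in isotype skin at each day. Of 5 brown adipocyte markers 2 were lower in isotype skin and 2 were higher with the antibody at day 28. Hair follicle markers were called lower for 2 of 10 at day 28, and their mean ran from 7.24 to 12.5 on the syngeneic, 4.79 to 8.48 on the isotype and 4.73 to 13.9 on the anti-IFNAR1 arrays. With the hair follicle mean as a covariate, 29 members were lower in isotype skin at day 28, where that fit called 15.7% of all genes. The part of fat, smooth muscle, fibroblasts, T cells, macrophages and RNA quality in the member results was not tested beyond the fits given.

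**Figure D5:**
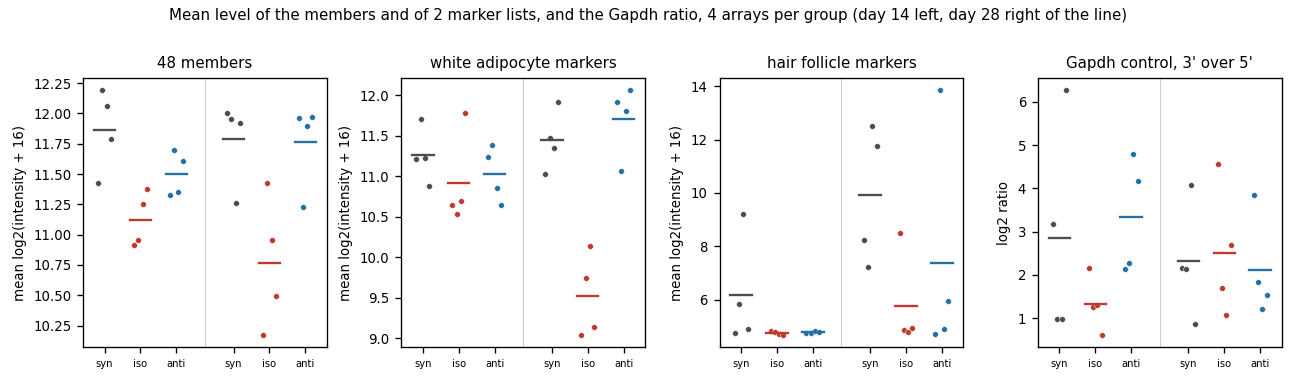
Mean log2(intensity + 16) of the 48 members, 7 white adipocyte markers and 10 hair follicle markers, and the log2 ratio of the 3' to the 5' Gapdh control probe sets, with 1 point per array and a line at the mean of 4 arrays. Members and adipocyte markers were both lowest in isotype skin at day 28, and the anti-IFNAR1 array with the highest hair follicle mean (13.9) had the lowest member mean of its group. Replicate 4 of syngeneic skin at day 28, with a hair follicle mean of 11.8, had a member mean of 11.9, not the lowest of its group.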

How the data were processed

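Whole skin was profiled on 24 Affymetrix arrays from snap-frozen tissue, after RNA extraction with a kit for fibrous tissue, per the labels' protocols. The values used are the linear probe set intensities deposited by the authors. Their summarisation, background correction and normalization are not given in the sources used here, and the arrays already had similar medians. Values were taken as log2(intensity + 16), which compresses changes of dim genes. Of 45101 probe sets 64 were controls, 9211 were unlisted, 932 had several gene symbols and 34945 had 1, and older symbols were updated through gene IDs. Each of 18193 genes was represented by its probe set with the highest mean.

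Group means were fitted together on the 24 arrays with limma 3.58.1 in R 4.3.3 (lmFit and eBayes, 18 residual degrees of freedom), for 11 comparisons. Two-sided p-values were corrected over all 18193 genes of a comparison (Benjamini-Hochberg), with a threshold of 0.05. The labels give no batch or scan date, so none could be fitted. Tables and figures were made in Python 3.11.15 with pandas 2.3.3 and matplotlib 3.10.9, and the fit was tested on simulated data.

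The members and gene lists were chosen with earlier results of these data known. Values on every array are given for pairs of fast and slow forms, for a set of named members, and for the 3 members with the largest change in each comparison. Of each list of other muscle genes, up to 4 called genes are named. The alternatives were an offset of 1, equal medians, quantile normalization, the mean of all probe sets, the upper 9097 genes by mean level, a trended robust prior, array weights, only the arrays compared, a replicate block, covariates for the Gapdh ratio and hair follicle mean, and leaving out each array. Fits without the 5 arrays of a Gapdh log2 ratio above 4, or the 4 of a hair follicle mean above 9, were added after the data were seen. Same-numbered arrays did not deviate together in every pair (correlations from -0.616 to 0.571), so the replicate numbers were not taken as pairs. Promoter sequences are from RefSeq, build GRCm38.p6.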

Additional observations from a re-analysis of the deposited data

Results flagged for a closer look

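For each of 32 members shown by array, the highest and the lowest array of each group of 4 were set against Dixon's limit for 4 values. Of 192 gene and group combinations 27 had an array beyond it. The limit lets through about 1 in 20 for independent normal values. The members vary together on the same arrays, so the 192 are not independent and 27 is not read as an excess over chance. Replicate 2 of anti-IFNAR1 skin at day 28 was set apart most often. It was low for Tnnt3 (13.8), Tnni2 (14.7), Mybpc2 (13.4), Ryr1 (12.6), Mb (11.8) and Pygm (12.5), and high for the slow gene Tnni1 (5.01). Replicate 1 of syngeneic skin at day 14 was low for Tnnc2 (15.1), Pvalb (12.2), Mybpc1 (11.8) and Casq1 (11.2), and high for embryonic Myh3 (8.59). Replicate 4 of isotype skin at day 28 was low for Pvalb (12.0) and Casq1 (10.6), and high for Myh7 (4.89) and Tnni1 (4.57). Replicate 3 of syngeneic skin at day 28 was low for Mybpc2 (13.4), Ttn (13.2) and Ckm (14.2).

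The other flags fell on 1 or 2 genes of an array. Replicate 4 of syngeneic skin at day 14 was high for Myh7 (4.94) and Tnnc1 (5.06), replicate 4 of syngeneic skin at day 28 for Tnni1 (4.60) and replicate 4 of anti-IFNAR1 skin at day 28 for Myl2 (5.56), all slow genes near the lower end of the scale. Replicate 1 of anti-IFNAR1 skin at day 14 was low for Tnni1 (4.33), at a distance of only 0.02 from the next array. Replicate 2 of the same group was high for Ampd1 (11.6) and Myh3 (5.17). Replicate 2 of isotype skin at day 28 was high for Myod1 (5.93), while the next array read 4.59.

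Mylpf, the fast regulatory light chain, was set apart because its isotype arrays all lay above the syngeneic mean at day 14 (0.573) and all below it at day 28 (-1.27). The test of that difference in limma gave -1.84 ± 0.70 with an adjusted p of 0.39, so a difference between days was not shown. Syngeneic replicate 1, which read 12.6 at day 14, lay lowest of its group for this gene.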

How the results depend on the processing

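No call of a named member changed direction under any alternative, but the counts of called members moved with how the spread was estimated and with single arrays. For fast minus slow genes a shift was judged by its size only, and a change of sign was not scored. In isotype against syngeneic skin at day 14, 9 members were called. The count was 1 with only the arrays compared (0.456% of all genes called) and 28 with array weights (20%). It was 16 with the Gapdh ratio as covariate and 14 with the hair follicle mean as covariate (15.4% of all genes for the latter). Without arrays of a high Gapdh ratio it was 5 (7.23%), and without 1 array 4 to 18. At day 28 the 26 calls became 9 with only the arrays compared, 15 without arrays of a high Gapdh ratio and 15 to 30 without 1 array. For anti-IFNAR1 against isotype skin at day 28 the 23 calls became 7, 8 and 14 to 28 in the same order. Array weights raised counts of 0, and raised the share of all genes called as well. The count became 11 for anti-IFNAR1 against isotype skin at day 14 (14.3% of all genes called) and 3 against syngeneic skin (4.9%). For day 28 against day 14 it became 1 in isotype (6.48%) and 5 in anti-IFNAR1 skin (9.12%). For the day difference of the antibody effect it became 1 (6.73%). The hair follicle covariate gave 1 for anti-IFNAR1 against syngeneic skin at day 14 (1.51%). Those comparisons stayed at 0 without any 1 array. The mean change of fast minus slow genes moved among the upper 9097 genes from 0.20 to 0.70 (isotype against syngeneic, day 14), from -0.74 to -0.054 (day 28) and from 0.81 to 0.29 (antibody, day 28). Fewer arrays and fewer slow genes enter some of these fits by construction, and the cause of the other shifts was not tested. With a replicate block the counts were 8 and 22 for isotype against syngeneic skin at day 14 and day 28 and 22 for the antibody at day 28, and 5 named calls were lost (Mybpc1, Myoz1, Myh8, Myod1 and Mylk2). The replicate numbers share no known origin, so this block is no pairing of animals. No share of all genes called is given for the fits with a replicate block, with the Gapdh covariate or without 1 array. Their member counts stand without that background. Of 38 calls of named members, 21 held in every fit without 1 array, 24 were lost with only the arrays compared, 18 without arrays of a high Gapdh ratio, and 5 with the mean of all probe sets (Mybpc1 at day 14, and Myh4 and Ryr1 in both comparisons at day 28). Array weights lost 2, Myod1 in isotype skin and Mylk2 with the antibody (1.12, adjusted p = 0.057) at day 28. Signal just above the lower end of the scale limits Myh7, Tnnc1 and Tnni1, and 4 arrays a group limit the precision of all members.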

Other observations

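Changes of the members differed with their level on the array. The 48 members were put in order of mean level and parted into 4 sets of 12. In isotype against syngeneic skin at day 28 the dimmest set (mean levels 4.45 to 9.22), which holds all 7 slow genes, the developmental myosins and the regulators, had a median change of -0.02 with 3 called, so that level and slow fibre role cannot be told apart here. The next set (10.2 to 12.3) had -1.43 with 7 called, and the set from 12.4 to 14.04, with Casq1, Ryr1, Pygm and Pgam2, also -1.43 with 9 called. The brightest set (14.04 to 15.4), with Acta1, Ckm, Ttn and the fast heavy chains Myh1, Myh2 and Myh4, had -0.77 with 7 called. At day 14 the order differed, and the dimmest set had the largest median fall. From the dimmest to the brightest set the medians were then -0.957, -0.88, -0.744 and -0.365, with 3, 3, 2 and 1 called.

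Probe sets of the same gene did not all give the same change in isotype against syngeneic skin at day 28. The brightest Ckm probe set, which stood for the gene, gave -0.92, and another with a mean level of 8.53 gave -1.66. For Ttn the brightest of 6 gave -0.75, the next -1.30, and the 4 dimmer ones ran from -1.65 to 0.00. The 4 Tpm2 probe sets ran from -1.69 to -0.44. For Mybpc1 the order was turned, with -1.11 for the brightest and -0.61 and -0.53 for dimmer ones.

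Neb read lowest on replicate 1 of isotype skin at day 28 (8.32), replicate 4 of syngeneic skin at day 14 (9.90) and replicates 3 and 4 of anti-IFNAR1 skin at day 14 (10.4 and 10.7). These 4 arrays had log2 Gapdh 3' to 5' ratios of 4.57, 6.27, 4.78 and 4.18. A ratio of 4.09 was also found on replicate 3 of syngeneic skin at day 28, where Neb read 11.8. The part of RNA quality in the Neb values was not tested.

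The syngeneic array at day 14 with a Myh3 signal, replicate 1, also read highest of all 24 arrays for some other muscle genes. Myl4, an embryonic light chain, read 7.59 there and at most 5.45 elsewhere. Tnnt2, a troponin T of heart and forming skeletal muscle, read 9.66 there and at most 8.93 elsewhere. Xirp1, an actin-binding protein of injured fibres, read 11.4 there and at most 10.1 elsewhere. Other genes did not share this: Actc1, the cardiac actin of forming muscle, read 9.27 there and 11.5 on replicate 4, and Chrna1, a subunit of the acetylcholine receptor, read 7.17 there and 7.86 on replicate 1 of isotype skin. Of 14 genes of regeneration and denervation 3 were highest on this array. The genes named were picked after their values were seen.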
